A study of Homo sapiens with 10 samples.

Results

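The microRNAs miR-92a, miR-92b, miR-25, miR-32, miR-363 and miR-367 form the miR-25 family, defined by a common seed. They were the 6 family members among 745 miRNA assays read in RNA that probes for single messenger RNAs had pulled out of living human cells. The members were taken by name. Earlier results of the same data, in which miR-92a and miR-92b stood highest with the p21 probe, had drawn attention to the family, so their differences from the control probe are given as a description. Cells of HepG2, a human liver tumour line, received a control probe, a probe against the p21 mRNA or a probe against the STAT3 mRNA. Cells of PC-3, a human prostate cancer line, received a control probe or the p21 probe. The p21 protein inhibits cyclin-dependent kinases, and STAT3 is a transcription factor activated by cytokines. In each group the probe was transfected and left for 24 hours, and the material bound to it was taken up on streptavidin beads, a procedure called miRIP in the labels. The RNA of each purification was then read on 2 quantitative PCR panels, so that 5 purifications gave 10 samples. All 6 members are on panel 1. Each condition was purified 1 time and each member was read in 1 well per purification, so no test between conditions was possible and no p-value is given. The labels name no separate cultures, and neither the labels nor the files state the probe sequences.

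A miRNA guides an Argonaute protein to messenger RNAs, mainly by pairing of its seed, the bases at positions 2 to 8 counted from its 5′ end. miRNAs with the same seed share many predicted targets. miR-92a comes from the polycistron that begins with miR-17, which is amplified in B-cell lymphoma and driven by MYC. miR-25 lies with miR-106b and miR-93 in an intron of the replication gene MCM7, miR-32 in an intron of TMEM245, and miR-367 in the cluster of the embryonic miR-302 miRNAs. miR-92b and miR-25 have been reported to repress p57, a relative of p21. miR-106b and miR-93, which have another seed, have been reported to repress p21 itself.

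The mature sequences below are those of RefSeq (GRCh38.p14), shown because the members share the seed and differ outside it. All 6 assay names matched, to the -3p strand except for miR-32, which matched the -5p strand. The seed is in capitals.
hsa-miR-92a: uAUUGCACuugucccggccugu
hsa-miR-92b: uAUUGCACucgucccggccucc
hsa-miR-25: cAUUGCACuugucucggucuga
hsa-miR-32: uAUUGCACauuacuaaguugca
hsa-miR-363: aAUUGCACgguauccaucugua
hsa-miR-367: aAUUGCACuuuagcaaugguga

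Among 2370 mature names in the RefSeq table, 6 carry AUUGCAC at these positions, and 0 of them lie outside the members. miR-92a and miR-92b are identical at 19 of 22 positions and differ by U10C, G21C and U22C, with miR-92a first and positions counted from the 5′ end. miR-92a and miR-25 are identical at 18 of 22 (U1C, C14U, C18U and U22A). miR-92b and miR-25 share 16 positions. The remaining members lie further away, with 11 positions shared by miR-92a and miR-32, 10 by miR-92a and miR-363, and 12 by miR-92a and miR-367. Behind the seed, miR-92a shares 11 of 14 positions with miR-92b and 11 with miR-25, and miR-92b shares 9 with miR-25. G and C make up 64.3% of these 14 bases in miR-92a, 78.6% in miR-92b and 50.0% in miR-25. They make up 28.6% for miR-32, 42.9% for miR-363 and 35.7% for miR-367. Neither the labels nor the files state how far the assays of miR-92a, miR-92b and miR-25 cross-react.

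The same mature miR-92a is made from 2 hairpins, and its assay reads both. One copy lies at chr13:91351361-91351382 on the plus strand, inside the span of the host transcript MIR17HG. The other lies at chrX:134169544-134169565 on the minus strand, inside MIR106AHG, together with miR-363 at chrX:134169382-134169403. miR-92b lies alone at chr1:155195237-155195258, on the plus strand and within the span of THBS3-AS1. miR-25 lies at chr7:100093571-100093592 and miR-32 at chr9:109046272-109046293, both on the minus strand. miR-367 lies at chr4:112647877-112647898 on the minus strand, within the spans of LARP7 and MIR302CHG. The coordinates are from GRCh38.p14.

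Of the family, 3 members were recovered with the target probes, and the other 3 were not. Each value is a Cq, the PCR cycle at which the signal crosses the threshold. A lower Cq means more RNA, 1 cycle was taken as a 2-fold difference, and a Cq of at most 35 was counted as detected. In HepG2 4 of the 6 members were detected with the control probe, where 16.8% of all 745 assays were. With the p21 probe 3 of 6 were detected (28.3% of all assays), and with the STAT3 probe 3 of 6 (34.4%). In PC-3 0 of 6 were detected with the control probe (2.15%) and 2 of 6 with the p21 probe (7.11%). Over the whole series 55.8% of assays were detected in none of the purifications, as were 2 members.

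miR-92a gave a Cq of 30.58 with the HepG2 control probe, 21.54 with the p21 probe, 26.79 with the STAT3 probe, none with the PC-3 control probe and 27.81 with the PC-3 p21 probe. Its level was highest in the HepG2 p21 purification, and both purifications with the p21 probe held more of it than the control of the same line. In the same order miR-92b gave 33.16, 25.45, 28.66, no Cq and 30.88. It came after miR-92a in each of the 4 purifications where both gave a Cq. miR-25 gave 33.77, 32.23, 31.39, no Cq and 36.88, the last of which is past the limit. Its lowest Cq came with the STAT3 probe, not with the p21 probe.

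miR-32 gave 34.22 with the HepG2 control probe and no Cq in the other 4 purifications. It is the only member seen with a control probe and with no target probe. miR-363 and miR-367 gave no Cq in any of the 5. miR-367 belongs to a cluster known from pluripotent cells.

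**Figure D1:**
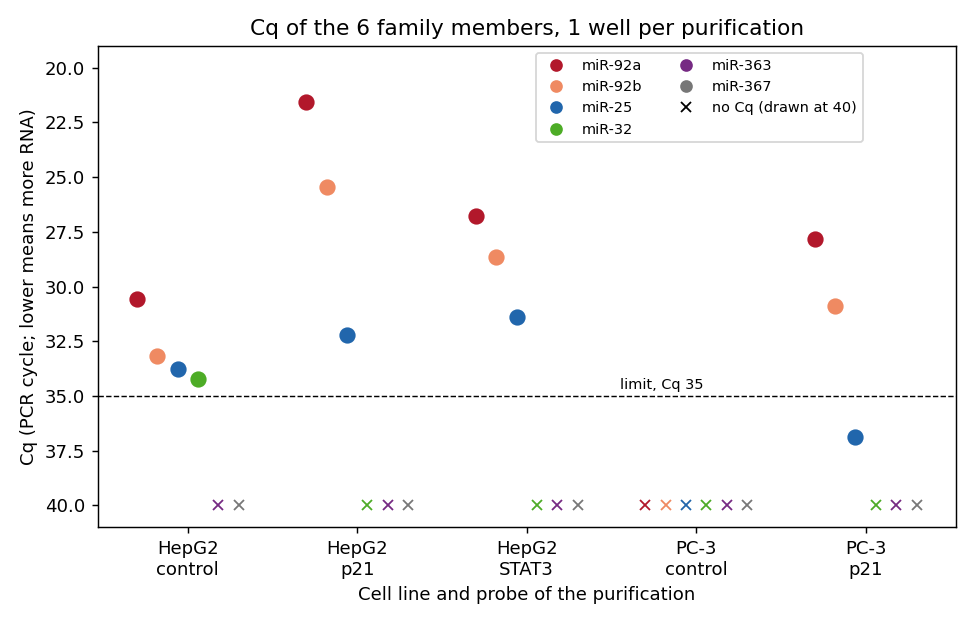
Cq of each family member (vertical axis, inverted so that more RNA is higher) in the 5 purifications, 1 well per point, with wells without a Cq drawn as crosses at 40 and the detection limit of 35 dashed. miR-92a and miR-92b stand at 21.54 and 25.45 with the HepG2 p21 probe, while miR-25 stays between 31.39 and 33.77 in HepG2.

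Ordered by Cq, the miR-92a purifications ran from HepG2 p21 through HepG2 STAT3 and PC-3 p21 to the HepG2 control. The steps between neighbours were 5.25, 1.02 and 2.77 cycles. The yardstick is the SD of an uncorrected difference between purifications, 0.724 cycles from 11 pairs of wells of assays found on both panels. Most of these pairs were of U6, SNORD38B and SNORD49A, and miR-103 was the only miRNA among them. With the HepG2 control probe miR-103 gave Cq 33.50 on panel 1 and 31.06 on panel 2. The repeat-well SDs below rest on the same pairs and may understate the spread of miRNA assays. On panel 1 of the HepG2 p21 plate the UniSp3 wells alone gave a larger SD, 1.42 cycles over 3 differences from the control, against 0.132 for STAT3. Against the SD of 0.724 the step from HepG2 STAT3 to PC-3 p21 was 1.41 SDs, so these neighbours are not clearly separated, and the first step, which rests on the value that drew attention to the family, is given as a size only. miR-92b had the same order, with steps of 3.21, 2.22 and 2.29 cycles. Its first step also rests on a value that drew attention to the family and is a size only. The later steps, 3.07 and 3.16 SDs, set uncorrected Cq of HepG2 against PC-3. These purifications differed in assays detected, 256 with HepG2 STAT3, 53 with PC-3 p21 and 125 with the HepG2 control. No step between the lines is thus read as a difference of miR-92a or miR-92b itself. For miR-25 the step from STAT3 to p21 was 0.832 cycles (1.15 SDs) and the step from p21 to control 1.55 (2.14 SDs, but close to the UniSp3 SD of 1.42). These SDs cover the PCR wells, not the error of transfection or purification, which is unknown with 1 purification per condition.

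Among all detected assays of a purification, miR-92a had the lowest Cq of 211 with the HepG2 p21 probe, where the next assay, miR-720, came at 24.69. It was 10th of 125 with the HepG2 control probe, 4th of 256 with the STAT3 probe and 2nd of 53 with the PC-3 p21 probe. miR-92b was 60th, 5th, 13th and 9th in the same purifications. miR-25 was 75th with the HepG2 control probe, 71st with p21 and 38th with STAT3, and miR-32 was 93rd with the control probe. In these 4 purifications the median over detected assays was a Cq of 32.99 to 33.92. Cq values of different assays depend on each assay's efficiency, so these places are not an order of abundance.

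Across the series, 0 of 45 water wells gave a Cq. UniSp6, a synthetic RNA added to each reaction, lay between Cq 21.18 and 22.74 on panel 1 of the 5 purifications. UniSp3, an amplification control in 3 wells of each panel, came later on panel 1 of the HepG2 p21 plate than on that of the control, with control minus p21 differences of -3.85, -1.08 and -1.90 cycles. With UniSp3 as the zero, miR-92a stood 11.32 log2 units above the control for p21. miR-122, the abundant miRNA of hepatocytes, gave no Cq in any purification and so gave no check of the line's label.

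With the p21 probe in HepG2, miR-92a and miR-92b stood far above the control probe while miR-25 moved with the bulk of the panel. The difference from the control probe was centred on the median of the panel 1 assays detected with both probes, which itself lay 1.30 cycles towards the p21 probe (87 assays). miR-92a was 7.74 log2 units above that centre (214-fold), and 9.04 without centring. miR-92b was 6.41 above it (85.1-fold), and 7.71 without centring. They were the 1st and 2nd of 103 assays detected with both probes, and miR-193b was next at 5.41. Assays detected with the p21 probe only lie outside that order, the highest lower bound among them being 5.97 for miR-296-5p.

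miR-25 was 0.25 above the centre (1.19-fold), the 46th of 103, which is within the SD of 0.768 for a centred difference between repeat wells. Its sign depended on the centre, from 3.83 on UniSp3 and 1.55 without centring to -0.89 on U6, SNORD38B and SNORD49A and -2.18 on all reference assays. miR-32 was detected with the control probe only and was at least 4.24-fold lower with the p21 probe, with the latter set to Cq 35. In log2 units the bound was -0.78 without centring and -1.02 on UniSp6. It was -3.22 on U6, SNORD38B and SNORD49A and -4.51 on all reference assays. With UniSp3 as the zero the upper bound was 1.49 and gives no direction. The control value of 34.22 is close to the limit, where few molecules are present, and 17.6% of the 125 assays detected with the control probe were likewise lost with the p21 probe.

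Thus 2 of the 3 measured members lay 2-fold or more above the centre and 0 lay as far below it. The same held for 37.9% (above) and 36.9% (below) of all 103 assays. The p21 differences helped to choose the family, so nothing is read from that count.

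The distance between members on the same plate needs no centre. In the HepG2 control purification miR-25 came 3.19 cycles after miR-92a. With the p21 probe the gap was 10.68 cycles, and with the STAT3 probe 4.61. Between miR-25 and miR-92b the gap went from 0.61 cycles with the control probe to 6.77 with p21 and 2.74 with STAT3. The family drew attention because miR-92a and miR-92b stood highest with the p21 probe, so a wide p21 gap to any other assay restates that choice and is a description.

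miR-92a and miR-92b kept closer to each other. miR-92b came 2.58 cycles later with the HepG2 control probe, 3.91 later with p21, 1.87 later with STAT3 and 3.07 later with p21 in PC-3. The gap changes from the control were 1.33, -0.71 and 0.49 cycles, or 1.22, 0.66 and 0.45 SDs of a gap change (SD of 1.09 cycles from the repeat wells). The p21 and STAT3 gaps differed from each other by 2.04 cycles (1.88 SDs), with miR-92a favoured on the p21 plate. None of these changes reaches 2 SDs of the repeat wells. Both members were noticed for high p21 values, so a small change of their p21 gap partly follows from that choice and is a description.

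**Figure D2:**
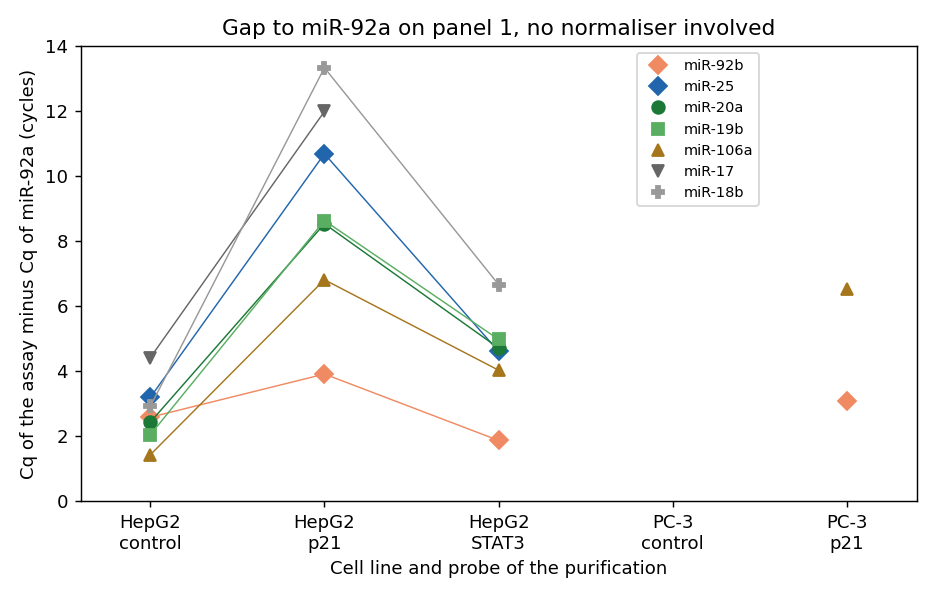
Cq of an assay minus the Cq of miR-92a on the same plate (cycles, vertical axis) in each purification where both were detected, 1 point per assay and lines joining the HepG2 purifications. miR-92b stays between 1.87 and 3.91 cycles from miR-92a, while miR-25 moves from 3.19 to 10.68 with the HepG2 p21 probe. The p21 values of miR-92a and miR-92b drew attention to the family, so the p21 gaps are a description.

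With the STAT3 probe in HepG2 all 3 detected members stood above the control probe, and miR-92b stood above miR-92a. The panel 1 centre was 0.49 cycles. miR-92b was 4.02 log2 units above it (16.2-fold, 1st of 100 assays measured with both), miR-92a 3.30 (9.86-fold, 3rd) and miR-25 1.89 (3.70-fold, 12th). Between them came miR-23a at 3.64. The margin of miR-92b over miR-92a, 0.71, is smaller than the repeat-well SD of a gap change. On all reference assays the differences shrank to 2.40, 1.69 and 0.27, the last under 2-fold.

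All 3 measured members lay 2-fold or more above the centre and 0 below, where 29.0% of all 100 assays lay above and 25.0% below. miR-32 was again seen with the control probe only, at least 2.42-fold lower with STAT3, as were 20.0% of the 125 control assays. In log2 units the miR-32 bound was -0.78 without centring and -0.30 on UniSp6. It was -2.54 on U6, SNORD38B and SNORD49A and -2.89 on all reference assays. On UniSp3 that upper bound was 0.51, which also gives no direction. The p21 and STAT3 comparisons use the same control purification, so the values of a member in both are not independent.

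**Figure D3:**
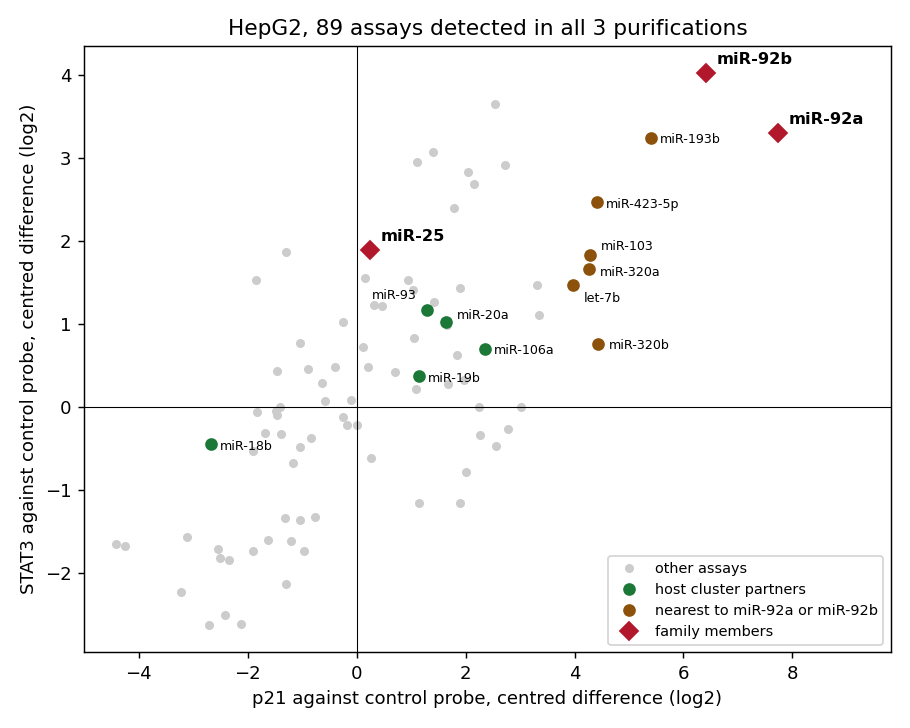
Centred log2 difference from the control probe in HepG2 with the p21 probe (horizontal) and the STAT3 probe (vertical) for the 89 assays detected in all 3 purifications, 1 point per assay. miR-92a (7.74 and 3.30) and miR-92b (6.41 and 4.02) lie at the upper right, and miR-25 (0.25 and 1.89) lies near the vertical axis; both axes share the control purification.

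Set directly against each other, the p21 and STAT3 purifications of HepG2 split the family. Without the control, the p21 purification exceeded that of STAT3 by 4.61 log2 units for miR-92a (24.4-fold), the 1st of 155 assays measured in both. miR-92b was 2.57 higher (5.92-fold, 13th). miR-25 was lower with the p21 probe by a log2 difference of -1.47 (141st of 155), a sign that turned on UniSp3 alone (0.15). Thus 2 of 3 members lay 2-fold or more towards p21 and 1 towards STAT3, beside 29.0% and 20.0% of all 155. The p21 values of miR-92a and miR-92b helped to choose the family, so nothing is read from their places or from that count. The uncorrected differences were 5.25, 3.21 and -0.83 cycles, the last under 2-fold and 1.15 SDs of the repeat wells.

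Changing the normaliser moved all panel 1 assays of a comparison together, so sizes changed more than order. miR-92a and miR-92b stayed 1st and 2nd of 103 for p21 against control with each of 5 other normalisers, among them no centring, and miR-25 ran from 41st to 50th. The places of miR-92a and miR-92b drew attention to the family and a shared shift can hardly change them, so nothing is read from their keeping. The miR-92a difference itself ran from 5.32 on all reference assays to 11.32 on UniSp3, and that of miR-92b from 3.99 to 9.99. The reference set holds miR-103 and miR-423-5p, which were 4.29 and 4.41 above the panel 1 centre themselves. The panel 2 well of miR-103 was lower, 2.26 above the centre of that panel. For STAT3 the places of the 3 members were the same with all 5.

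**Figure D4:**
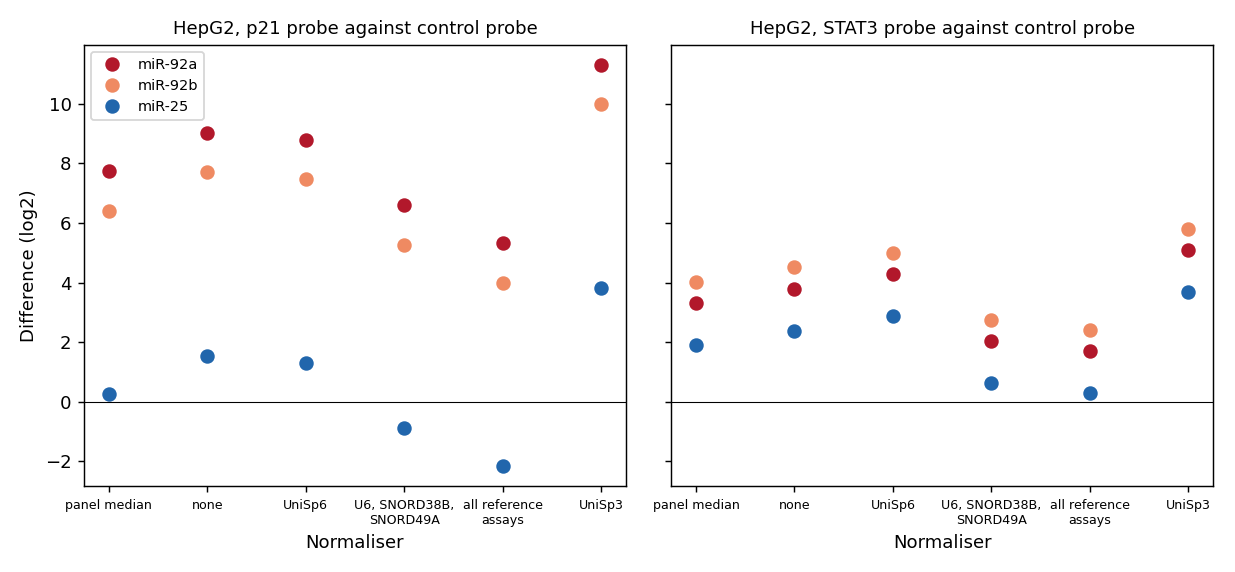
Log2 difference from the control probe in HepG2 for miR-92a, miR-92b and miR-25 (points) with each of 6 ways of setting the zero of panel 1, p21 probe on the left and STAT3 probe on the right. miR-92a with p21 ranges from 5.32 to 11.32 and miR-25 from -2.18 to 3.83, with the distances between members the same in every column.

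In PC-3 the p21 probe again recovered miR-92a and miR-92b. Neither gave a Cq with the control probe, so the differences are lower bounds with the control at Cq 35. miR-92a was at least 39.3-fold higher (5.30 log2 units) and miR-92b at least 4.69-fold (2.23). Of the 53 assays detected with the p21 probe, 20.8% were at least 2-fold higher by value or by bound, both detected members among them. Earlier results with the p21 probe drew attention to the family, so nothing is read from that share. The centre of 1.89 cycles rests on 6 assays of panel 1, and without centring the bounds were 7.19 and 4.12. miR-25, past the limit at 36.88, stayed out of the comparison.

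Between the lines, the p21 purification of HepG2 held more of both members than that of PC-3. miR-92a was 3.76 log2 units higher in HepG2 (13.6-fold, 5th of 45 assays measured in both) and miR-92b 2.92 (7.57-fold, 9th). At least 2-fold higher were 37.8% of the 45 assays. The p21 values helped to choose the family, so nothing is read from these places. The panel as a whole was shifted by 2.50 cycles towards HepG2, and the uncorrected differences were 6.27 and 5.43. The gap between the members was 3.07 cycles in PC-3 and 3.91 in HepG2, a difference of 0.84 cycles or 0.78 SDs, also given as a description. Neither the labels nor the files state how many cells went into a purification, so fewer cells and less RNA per cell cannot be told apart.

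The authors' deposited table of fold ratios gives nearly the same places at the top. In log2 units its miR-92a values match those found here on UniSp6 (for p21 in HepG2, 8.80 in both). The like places are therefore not separate evidence. In it miR-92a stands at 447-fold and miR-92b at 178-fold for p21 in HepG2, 1st and 2nd of 729 entries, with miR-25 at 2.48-fold. For STAT3 the authors' deposited table gives 31.9-fold for miR-92b (1st), 19.4-fold for miR-92a (4th) and 7.29-fold for miR-25 (17th). For p21 in PC-3 the authors' deposited table gives 104-fold for miR-92a (1st) and 12.4-fold for miR-92b (5th). Neither gave a Cq with that control probe, so the last pair of values are lower bounds.

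The host clusters of the members hold 14 further miRNAs, listed with earlier results of these data known. They were miR-17, miR-18a, miR-19a, miR-20a and miR-19b with miR-92a on chromosome 13, miR-106a, miR-18b and miR-20b on X, miR-106b and miR-93 with miR-25, and miR-302a to miR-302d with miR-367. The clusters are short, 787 bases from the first hairpin to the last on chromosome 13, 901 on X, 515 on chromosome 7 and 684 on chromosome 4. Of the 14 partners 6 were detected with the HepG2 control probe, 7 with p21, 5 with STAT3, 0 with the PC-3 control and 2 with p21 in PC-3.

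miR-20a gave Cq 33.01 with the HepG2 control probe, 30.07 with p21 and 31.50 with STAT3. miR-19b, a partner with another seed, gave 32.62, 30.17 and 31.76. Both had a lower Cq with either target probe than with the control, by a fraction of the change in miR-92a. miR-106a gave 32.01, 28.35 and 30.82, and 34.33 with the p21 probe in PC-3. Among partners measured with both probes it had the largest difference for p21, at 2.36 log2 units above the panel centre (5.12-fold), beside 1.64 for miR-20a and 1.15 for miR-19b.

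miR-93, the partner of miR-25, gave 32.45, 29.85 and 30.79, which was 1.29 above the centre for p21 and 1.17 for STAT3. miR-17 gave 34.996 with the control probe, just inside the limit, and 33.53 with p21 (0.17 above the centre); with STAT3 it was past the limit at 35.50. miR-18b gave 33.50, 34.87 and 33.45 and lay below the centre for p21 (-2.68, but 0.90 on UniSp3). miR-18a was within the limit with p21 only, at 32.86, which gives a lower bound of 0.84 and no upper one. miR-19a was within the limit only in PC-3 with p21 (34.37). miR-20b, miR-106b and miR-302a to miR-302d had no Cq of at most 35 in any purification.

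With p21, 4 of 6 measured partners lay 2-fold or more above the centre and 1 as far below, with a median of 1.22, beside 37.9% and 36.9% over all assays, whose median is 0 by construction on each panel. For STAT3 2 of 5 were higher and 0 lower, with a median of 0.70, beside 29.0% and 25.0%. These counts hung on the centre: on all reference assays 0 were higher and 4 lower for p21, and 0 higher and 2 lower for STAT3. Neither count is thus steady.

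The gaps on the plate do not depend on a centre. miR-20a came 2.43 cycles after miR-92a with the HepG2 control probe, 8.53 after with p21 and 4.71 after with STAT3. For miR-19b the gaps were 2.04, 8.63 and 4.97. An assay noticed for its p21 value, as miR-92a was, has a wide p21 gap to its partners by that choice, and nothing is read from these widths. Among themselves miR-20a and miR-19b stayed together, within -0.39 to 0.26 cycles.

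For miR-106a, from the X cluster that also holds a miR-92a hairpin, the gap went from 1.43 cycles with the control to 6.81 with p21 and 4.03 with STAT3. In PC-3 it was 6.52 with p21, and the p21 gaps of the lines differed by 0.29 cycles (0.27 SDs). The gap from miR-92a to miR-17 was 4.41 with the control and 11.99 with p21. miR-25 and its partner miR-93 stayed closer: the Cq of miR-93 minus that of miR-25 was -1.32 with the control, -2.37 with p21 and -0.60 with STAT3. These changes, -1.05 and 0.72 cycles, are 0.97 and 0.66 SDs.

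**Figure D5:**
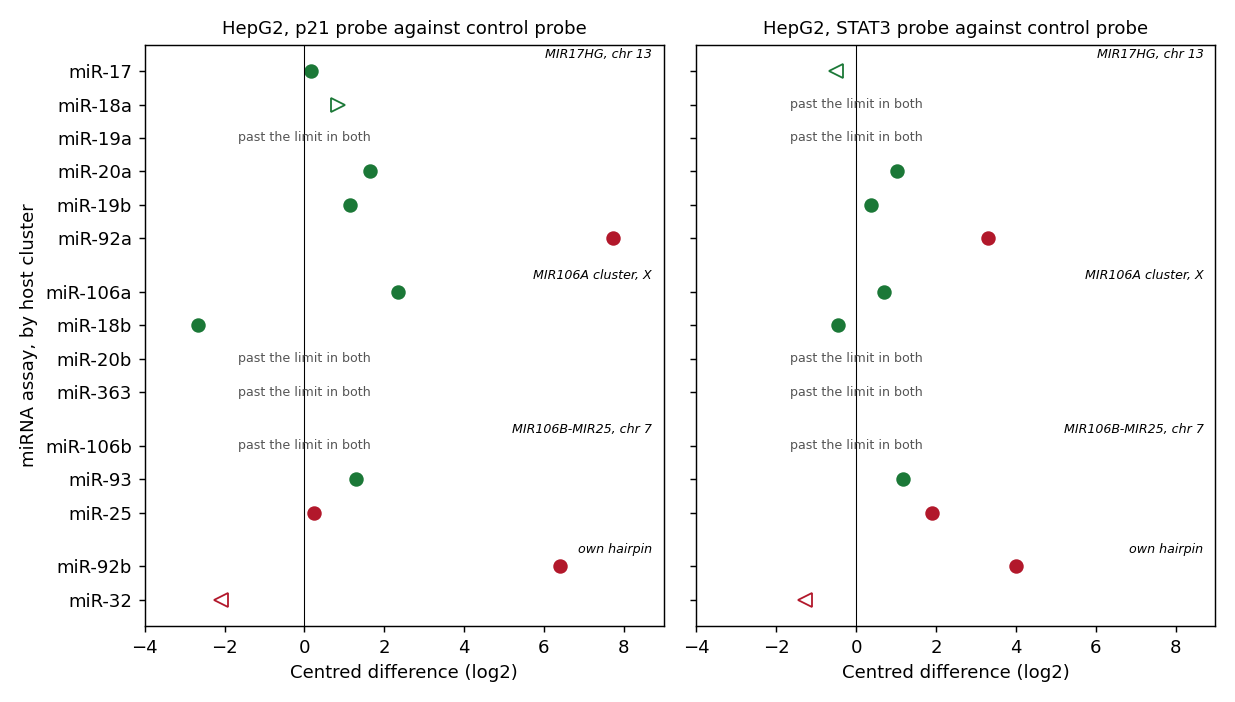
Centred log2 difference from the control probe in HepG2 (horizontal) for the members (red) and their host cluster partners (green), grouped by cluster, with p21 on the left and STAT3 on the right. The cluster of miR-367 and miR-302a to miR-302d is not drawn. Open triangles are bounds and point to the side on which the value lies, and miR-92a and miR-19b are drawn once although each also has a copy on X. miR-92a lies at 7.74 with p21, above miR-20a at 1.64 and miR-19b at 1.15 from the same chromosome 13 transcript; on the reference assays the partners with p21 lie below zero.

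The opposite strands of the hairpins, which are usually discarded when the guide strand is loaded, were near or past the limit. Of 5 passenger assays 0 were detected with the HepG2 control probe, 2 with p21 and 1 with STAT3, and 0 in PC-3. miR-92b* gave Cq 38.03 with the HepG2 control probe, 33.93 with p21, 34.02 with STAT3, and 36.28 and 37.35 with control and p21 in PC-3. Its p21 and STAT3 values lay 0.083 cycles apart, whereas those of miR-92b lay 3.21 apart. miR-92b* is read on panel 2 and miR-92b on panel 1, so plate differences enter that contrast. miR-25* was within the limit with p21 only, at 34.39. miR-363* gave no Cq in any purification.

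The assays whose pair of HepG2 differences lay nearest to that of miR-92a were miR-92b, at a root mean square distance of 1.07 log2 units over the p21 and STAT3 values, then miR-193b (1.65), miR-423-5p (2.43), miR-103 (2.65), miR-320a (2.72) and miR-320b (2.95). The nearest to miR-92b, besides miR-92a, were miR-193b (0.89), miR-423-5p (1.79), miR-103 (2.15), miR-320a (2.25) and let-7b (2.49). The distances are over 2 values that share a control, among 89 assays, and are a description. No host cluster partner was in either list. The panel 2 well of miR-103 was in neither, with 2.26 for p21 and -0.33 for STAT3, beside 4.29 and 1.83 on panel 1. The Cq of miR-193b minus that of miR-92b was -0.098 with the HepG2 p21 probe, -0.33 with STAT3 and 2.79 with the p21 probe in PC-3. HepG2 and PC-3 thus differed by -2.89 cycles in that gap (2.66 SDs), and by 0.84 in the gap between miR-92a and miR-92b. miR-193b was listed because its HepG2 differences lay near those of miR-92b, and its Cq in PC-3 was 33.67, close to the limit. Nothing is read from this contrast between the lines.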

How the data were processed

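RNA bound to a control, p21 or STAT3 probe in HepG2 or PC-3 was isolated with TRIzol from streptavidin beads and read on Exiqon SYBR Green RT-PCR panels, per the labels' protocols. The deposited values are unnormalised Cq, with wells without a call left undetermined. Neither labels nor files state the instrument, threshold or software. The authors also deposited fold ratios, scaled, per the file headers, to an unnamed housekeeping gene. For the members with a value or a bound, these ratios as log2 matched the differences found here on UniSp6. Differences were taken within each panel, as control minus target Cq, and centred on the median of miRNA assays detected with both probes. Assays detected with 1 probe only gave a bound at Cq 35. A log2 difference of at least 1 was counted as called. No test was run, with 1 purification per condition. Precision came from assays read on both panels, mostly U6, SNORD38B and SNORD49A (SD of 0.634 cycles for a Cq, 22 pairs).

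Members and lists were chosen with earlier results of these data known. Named were the members, their cluster partners and passenger strands, the 5 assays nearest in pattern to miR-92a and to miR-92b, and reference assays. Assays named as the next in an order (miR-720, miR-296-5p and miR-23a) were chosen after their values were seen. Alternatives were 5 other normalisers, Cq limits of 32 and 37, undetected assays set to the limit, and the authors' folds. The calculation was tested on simulated data. Python 3.11.15, numpy 2.4.6, pandas 2.3.3 and matplotlib 3.10.9 were used. Target sites in the p21 and STAT3 mRNAs were not analysed here.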

Additional observations from a re-analysis of the deposited data

Results flagged for a closer look

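Signals past the detection limit of Cq 35, which the comparisons at that limit did not use, appeared with target probes where the matching control probe gave no Cq at all. miR-25 gave Cq 36.88 with the p21 probe in PC-3. miR-92a-1*, the passenger strand of the chromosome 13 hairpin, gave 36.24 (p21) and 36.17 (STAT3) in HepG2. miR-25* gave 36.79 and miR-92a-2*, from the X hairpin, 38.84 with the STAT3 probe in HepG2. Each rests on 1 well.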

How the results depend on the processing

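The limit on every value is 1 purification per condition; the Cq near 35 are the least precise, since few molecules are present. The miR-92a difference was positive under every setting run, in all 5 comparisons. For p21 against control in HepG2 it was 9.04 without centring, 8.80 on UniSp6 and in the authors' deposited table, 6.60 on U6, SNORD38B and SNORD49A, 5.32 on all reference assays, 11.32 on UniSp3 and 6.68 at a Cq limit of 32. For STAT3 against control it was 4.28 on UniSp6 and in the authors' deposited table, 2.04 on U6, SNORD38B and SNORD49A, 1.69 on the reference assays, 5.09 on UniSp3 and 1.89 at a limit of 32. The PC-3 bound was 7.19 without centring, 6.70 on UniSp6 and in the authors' deposited table, 6.80 on UniSp3, 7.15 at a limit of 37 and 1.66 at 32. For p21 against STAT3 it was 3.59 on the reference assays and 6.23 on UniSp3. For p21 in HepG2 against PC-3 it was 6.27 without centring, 5.20 on UniSp6, 5.77 on U6, SNORD38B and SNORD49A, 5.01 on the reference assays and 7.32 on UniSp3.

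The counts of all assays at least 2-fold higher moved more. Other normalisers count over the same assays, while the limits and undetected assays set to the limit change how many are counted, and the authors' deposited table has 729 entries, so those counts are not shares. For p21 against control (39) they were 18 on U6, SNORD38B and SNORD49A, 9 on the reference assays, 88 on UniSp3, 64 and 6 at limits of 37 and 32, 69 with undetected assays at the limit and 94 in the authors' deposited table. For STAT3 (29) they were 44 on UniSp6, 11 on U6, SNORD38B and SNORD49A, 9 on the reference assays, 71 on UniSp3, 48 and 4 at limits of 37 and 32, 46 with undetected assays at the limit and 77 in the authors' deposited table. For p21 in PC-3 (2 of 10 measured with both, without bounds) they were 5 without centring and on UniSp3, 4 on UniSp6, 9 and 1 at limits of 37 and 32, 11 with undetected assays at the limit and 17 in the authors' deposited table. For p21 against STAT3 (45) they were 26 on the reference assays, 85 on UniSp3 and at a limit of 37, and 12 at 32. For p21 in HepG2 against PC-3 (17) they were 32 without centring, 28 on U6, SNORD38B and SNORD49A, 34 on UniSp3, 38 and 4 at limits of 37 and 32, and 51 with undetected assays at the limit. At a limit of 32, 1 member was detected with the HepG2 control probe, and at 37, 3 were with p21 in PC-3.

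Some signs turned. On UniSp3 the p21 difference of miR-18b became 0.90, and miR-25 for p21 against STAT3 became 0.15. The upper bounds of miR-32 on UniSp3, 1.49 for p21 and 0.51 for STAT3, give no direction. At a limit of 32 the control value of miR-25 for STAT3 and of miR-92b for PC-3 was missing, and the bounds of -1.30 and -1.40 give no direction. On the reference assays the p21 differences of miR-106a, miR-19b, miR-20a and miR-93 became -0.066, -1.27, -0.78 and -1.13. For STAT3, miR-20a became -0.24 on U6, SNORD38B and SNORD49A and -0.59 on the reference assays, and miR-93 became -0.093 and -0.45. Among partners under 2-fold, miR-19b for STAT3 (0.37) became -0.89 and -1.25 on the same normalisers, miR-106a for STAT3 (0.70) -0.56 and -0.91, and miR-17 for p21 (0.17) -0.97 and -2.25. The partners' alternatives were chosen after seeing the data. A change of normaliser shifts all assays of a panel alike, so these turns follow from its size. No paired analysis was possible because each condition was purified 1 time and no test was run.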
